A study of Homo sapiens with 8 samples.

Results

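HepG2 and GM12878 are established human cell lines of different origin, and their RNA was compared gene by gene over 3 direct RNA libraries of each. HepG2 was grown from a hepatocellular carcinoma and keeps many traits of a hepatocyte. GM12878 is a B-lymphoblastoid line, made by transforming B cells with Epstein-Barr virus. Each line comes from 1 donor, so differences of lineage, tumour origin and donor cannot be told apart here. Neither line was given a treatment or a genetic change, per the labels, and total RNA was the starting material of both. In direct RNA sequencing a nanopore reads the RNA strand itself, and TALON, a program for long reads, assigns each read to a transcript model. Reads of all models were summed for each of 20565 annotated genes. Of these genes, 16103 had a read in the 6 libraries, 4017 of them in HepG2 alone and 1912 in GM12878 alone, and 4778 were abundant enough to be tested. The series holds 8 libraries in all, and 2 libraries of K562, a leukaemia line, entered the fit to help estimate the spread of each gene. The K562 libraries also entered the abundance filter that chose the tested genes. With the 6 libraries of HepG2 and GM12878 alone, 3497 genes were tested.

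Hepatocytes make most proteins of blood plasma and handle lipids, amino acids and toxic compounds, while B cells present antigen and make antibody. HepG2 is also a tumour line with active Wnt signalling, and GM12878 carries viral proteins that keep NF-kB signalling on. The account below goes past the plasma proteins and B cell receptors that define these lineages and turns to the metabolic, cytoskeletal, proliferative and signalling genes that differed, and to those that did not.

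Read totals were 461497, 248490 and 346196 in HepG2 replicates 1 to 3, against 151720, 176118 and 70374 in GM12878. Values are CPM, a gene's reads scaled to library size after TMM normalisation. A line in which a gene had 0 reads was set at 3 reads over its libraries, 3.76 CPM in HepG2 and 7.63 CPM in GM12878, and a fold against it is written as a lower bound, covering counting error only. Pairs of libraries of a line differed by more than sampling noise, with a chi-square per degree of freedom of 1.53 to 2.73 in HepG2 and 1.35 to 1.625 in GM12878. Separate cultures are not stated in the labels, so the p-values speak only of spread among the libraries at hand, and that spread may be technical. Tested markers of the labelled origins differed in the direction of the labels. Of 33 genes of secreted hepatocyte proteins 30 were tested, and all 30 were higher in HepG2. Of 26 genes of B cell identity 18 were tested, and all 18 were lower in HepG2, while PAX5 and EBF1 were not tested. Such markers enter the test mainly through the line where they are abundant, so these counts are no separate check of the labels. Of the markers of other cells, the 10 tested erythroid ones summed to 0.987 CPM in HepG2 and 4.16 CPM in GM12878, and 3 of 10 fibroblast markers were tested, summing to 1087 CPM in HepG2 and 418 CPM in GM12878. Without the K562 libraries 0 erythroid markers were tested. Of 11 myeloid markers 1 was tested and of 13 T and NK cell markers 3. LYZ, the gene of lysozyme, had 1948, 1543 and 1843 CPM in HepG2 and 0 reads in GM12878, and CD7, a T cell surface protein, 805, 814 and 612 CPM in HepG2 and 0 reads in GM12878. A constant region of the T cell receptor, TRAC, had 0 reads in HepG2 and 267, 285 and 211 CPM in GM12878, and another, TRBC2, 0 reads in HepG2 and 86.7, 64 and 70.3 CPM in GM12878. Their defining companions CD3D, CD3E, CD14 and CSF1R did not reach the level needed for a test.

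By edgeR's quasi-likelihood test, with p-values adjusted after Benjamini and Hochberg over all 4778 genes, 2348 genes, 49.1% of those tested, were called at an adjusted p under 0.05 and a fitted change of at least 2-fold. The calls comprised 1338 genes higher in HepG2 (28%) and 1010 higher in GM12878 (21.1%). With library totals in place of TMM the split was 1083 higher in HepG2 and 1439 higher in GM12878. Counts of gene lists below are read against these shares. Of the calls, 92 fell in the marker lists of these lineages or of other cell types, and 2256 lay outside them. In 351 of the genes higher in HepG2 no GM12878 read was found, and in 182 of those higher in GM12878 no HepG2 read. The libraries of the lines did not overlap in 1317 and 957 of the calls in turn. Calls are chosen for a large change beyond the spread of libraries, so this separation is no separate support for them. Many genes that both lines used at a high level were even: of 505 genes with at least 200 CPM in both lines, 92 were called, and for 289 the 95% interval of the change lay within 2-fold.

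**Figure D1:**
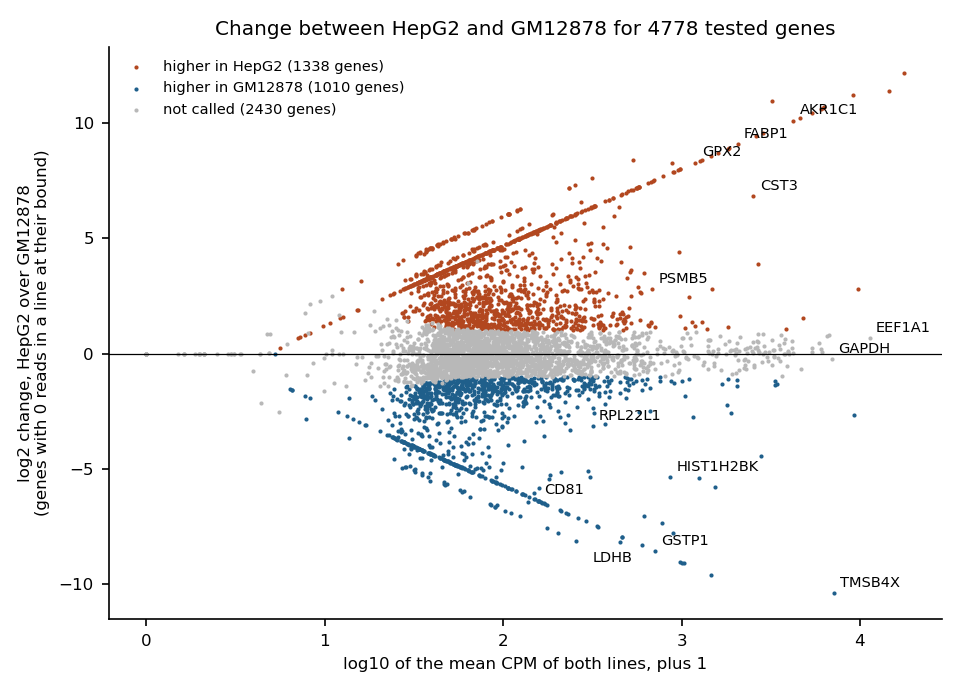
Each point is 1 of 4778 tested genes, with the log10 of its mean CPM over both lines on the x axis and its log2 change, HepG2 over GM12878, on the y axis; genes with 0 reads in a line are drawn at their bound, which forms the straight edges. The 1338 genes higher in HepG2 lie above 0 and the 1010 higher in GM12878 below, and the most abundant genes split into those near 0, such as EEF1A1 and GAPDH, and those at the edges, such as AKR1C1 and TMSB4X.

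Outside the lineage markers, the genes furthest above GM12878 joined detoxification, a stomach protease, fetal growth and the cytoskeleton of epithelia. AKR1C1, an aldo-keto reductase of steroids and xenobiotics (ENSG00000187134.13, chromosome 10, 4963253 to 4983283, GRCh38), had 8164, 8569.99 and 8679 CPM in the HepG2 libraries and 0 reads in GM12878, at least 1109.7-fold higher. It shares sequence with AKR1C2 and AKR1C3, and how reads were divided among them is uncertain. PGC, the precursor of the stomach protease gastricsin (ENSG00000096088.16, chromosome 6, 41736711 to 41754109, GRCh38), had 4904, 4850.3 and 6022 CPM in HepG2 and 0 reads in GM12878, at least 689-fold higher. FABP1, the liver fatty acid carrier (ENSG00000163586.9, chromosome 2, 88122982 to 88128116, GRCh38), had 4658, 4290.3 and 3442 CPM in HepG2 and 0 reads in GM12878. The 3 HepG2 libraries lay close together for AKR1C1, PGC and FABP1, each far above GM12878.

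GPX2, a selenium-dependent peroxidase of epithelia (ENSG00000176153.11, chromosome 14, 64939152 to 64942905, GRCh38), had 2292, 2193 and 2683 CPM in HepG2 and 0 reads in GM12878, at least 313-fold higher. GSN, the actin-severing protein gelsolin (ENSG00000148180.19, chromosome 9, 121207794 to 121332843, GRCh38), had 2031, 2045 and 1806 CPM in HepG2 and 0 reads in GM12878. DUSP9, a phosphatase of MAP kinases on chromosome X, had 1504, 1421 and 1275 CPM in HepG2 and 0 reads in GM12878. All GM12878 libraries were at 0 for GPX2, GSN and DUSP9, so their bounds rest on the depth of GM12878. The set also held SERPINF1, an inhibitor of vessel growth, the keratin KRT8, the short-chain reductase DHRS2 and FBXO2, which selects glycoproteins for ubiquitin ligation, at mean levels of 1916 ± 111, 1575 ± 80.9, 1759 ± 179.8 and 1159.7 ± 101 CPM in HepG2 (SD, n = 3). SERPINA6, which carries corticosteroids in plasma, and SERPINA5, an inhibitor of activated protein C, had 1146 ± 249.6 and 1137 ± 169.8 CPM in HepG2. SERPINA5 and SERPINA3 share exonic sequence with the model AL049839.2, which had 2547 ± 187 CPM, and how their reads were divided is uncertain.

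The genes furthest below in HepG2 had varied roles, in the actin cytoskeleton, lysosomes, adhesion, metabolism and chromatin. LCP1, the actin bundler L-plastin (ENSG00000136167.13, chromosome 13, 46125920 to 46211871, GRCh38), had 5.92, 15.9 and 7.37 CPM in HepG2 and 1733, 1588 and 1307 CPM in GM12878, a log2 change of -7.36 ± 0.34 (SE). ARHGDIB, a GTPase regulator of blood cells (ENSG00000111348.8, chromosome 12, 14942017 to 14961728, GRCh38), had 8.88, 0 and 14.7 CPM in HepG2 and 1233, 1164 and 1279 CPM in GM12878. The libraries of both lines lay far apart at LCP1 and ARHGDIB alike. LAPTM5, a lysosomal membrane protein of blood cells, had 0, 0 and 7.37 CPM in HepG2 and 987, 989 and 717 CPM in GM12878. SRI, the calcium-binding protein sorcin, is not a leukocyte marker, yet had 0 reads in HepG2 and 660.02, 739 and 647 CPM in GM12878, at least 181-fold lower in HepG2.

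SRGN, the core protein of granule proteoglycan, and ITGB7, an integrin chain for homing to the gut, had 0 reads in HepG2, with 467, 349 and 449.9 CPM for SRGN and 340.01, 448 and 548 CPM for ITGB7 in GM12878. GSTP1, a glutathione transferase, and LDHB, a lactate dehydrogenase chain, were likewise at 0 reads in HepG2, with 1460.05, 1513 and 1293 CPM for GSTP1 and 993, 1245 and 1364 CPM for LDHB in GM12878. Both are genes of general metabolism, and all 3 GM12878 libraries held them at a high level. HIST1H1C, a linker histone (ENSG00000187837.3, chromosome 6, 26055787 to 26056428, GRCh38), was read in both lines, at 62.2, 47.6 and 51.6 CPM in HepG2 and 3033, 3252 and 2769.6 CPM in GM12878. HIST1H2BK, a core histone chosen after its values were seen, followed the same pattern with 41.5, 31.7 and 47.9 CPM in HepG2 and 1613, 1804 and 1659 CPM in GM12878.

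**Figure D2:**
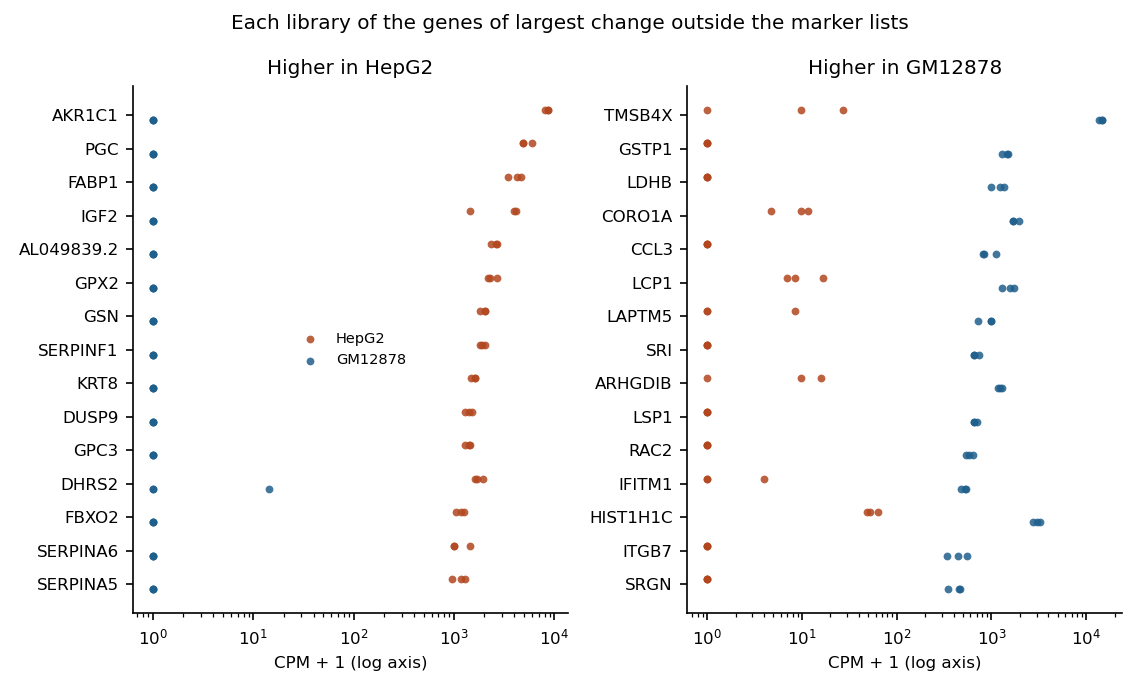
CPM plus 1 of each library, on a log axis, for the 15 genes of largest change in each direction that are in no marker list; each point is 1 library. In the genes higher in HepG2 nearly every GM12878 point sits at 0 reads, and in those higher in GM12878 the HepG2 points sit at or near 0 reads or, for HIST1H1C, between 47.6 and 62.2 CPM.

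Antioxidant and detoxifying genes were mostly higher in HepG2. These enzymes reduce aldehydes, quinones and peroxides, and many are switched on by the transcription factor NRF2. Of 21 tested members of the list, 13 were higher in HepG2 and 1 lower, with a median log2 change of 1.65 against 0.02 over all tested genes. AKR1B1, the aldose reductase, had 1652, 1717 and 2237 CPM in HepG2 and 393, 303 and 323 CPM in GM12878, and NQO1, a quinone reductase, 933, 929.9 and 1009.7 CPM in HepG2 and 53.3, 128 and 42.2 CPM in GM12878. FTL and FTH1, the iron-storing ferritin chains, had log2 changes of 2.83 ± 0.17 and 1.53 ± 0.17. TXNRD1, thioredoxin reductase, was at 39.3 ± 16.6 CPM in HepG2 and 66.2 ± 22.5 in GM12878 and was not called, except without HepG2 replicate 2 or GM12878 replicate 3 and with library totals, where it was lower in HepG2. HMOX1, heme oxygenase, was lower in HepG2, at 32.6, 26.4 and 58.96 CPM against 80, 105 and 84.4 CPM in GM12878, and lost its call in DESeq2 and without HepG2 replicate 1 or 2 or GM12878 replicate 2.

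Glutathione and selenium enzymes followed with 12 of 24 tested members higher in HepG2 and 2 lower, a median log2 change of 0.99. Some glutathione transferases were read in 1 line alone. GSTA1 had 394, 417 and 531 CPM in HepG2 and 0 reads in GM12878, and GSTM3 148, 148 and 162 CPM in HepG2 and 0 reads in GM12878, against 0 HepG2 reads for GSTP1. GSTO1, of the omega class, was at 565 ± 88.3 CPM in HepG2 and 328 ± 87.1 in GM12878 and was not called, and MGST1, the microsomal form, was 1.22 higher on the log2 scale, a call lost without GM12878 replicate 2, with library totals and against a 2-fold change. SELENOP, the plasma selenium carrier made by liver, had 1057, 724 and 1408 CPM in HepG2 and 0 reads in GM12878. GPX4, the peroxidase of membrane lipids, had 1459.8, 1527 and 1445 CPM in HepG2 and 480.02, 495 and 449.9 CPM in GM12878. GPX1, the cytosolic peroxidase, had 586, 560.1 and 612 CPM in HepG2 and 520.02, 483 and 619 CPM in GM12878 and was not called, with a 95% interval of -0.29 to 0.57 for the log2 change.

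Lipid synthesis had the largest share of called members among the metabolic lists. Cells build fatty acids and cholesterol under the control of SREBP factors, and the liver exports both. Of 30 tested genes of fatty acid and cholesterol synthesis, 26 were higher in HepG2 and 2 lower, with a median log2 change of 2.50. FASN, the fatty acid synthase, had 995, 1109.5 and 792 CPM in HepG2 and 107, 75.6 and 28.1 CPM in GM12878. SCD, which desaturates fatty acids, had 1720.4, 1934 and 1872 CPM in HepG2 and 93.3, 93.1 and 56.2 CPM in GM12878, a log2 change of 4.42 ± 0.26. SREBF1, the factor behind fatty acid synthesis, was called (3.38), while SREBF2, its cholesterol counterpart, was at 177 ± 49.9 CPM in HepG2 and 121 ± 5.15 in GM12878 and was not. TM7SF2, a sterol reductase, had 319.8, 343 and 221 CPM in HepG2 and 0 reads in GM12878. VPS51 overlaps TM7SF2 on the same strand, with 226 reads in HepG2 and 63 in GM12878, and the division of reads between them is uncertain. The 2 members lower in HepG2 were INSIG1, which holds SREBP in the ER, with 0 reads in HepG2 and 33.3, 40.7 and 42.2 CPM in GM12878, and PMVK, a mevalonate pathway kinase, at 78.9 ± 32.7 CPM in HepG2 and 171 ± 26.9 in GM12878, a call lost without HepG2 replicate 3.

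Fatty acid breakdown and lipid droplets gave 13 of 20 tested members higher in HepG2 and 1 lower, a median log2 change of 1.40, and against a 2-fold change 8 were higher. ETFB, an electron carrier of beta-oxidation, had 1335, 1083 and 988 CPM in HepG2 and 73.3, 122 and 98.4 CPM in GM12878, while its partner ETFA was at 228 ± 103 CPM in HepG2 and 154 ± 123 in GM12878 and was not called, except without GM12878 replicate 3. CIDEB, a lipid droplet protein of hepatocytes, was higher, at 376, 349 and 398 CPM in HepG2 against 13.3, 0 and 0 in GM12878. The carriers of fatty acids were divided: FABP1 was read in HepG2 alone, and FABP5 was lower in HepG2, with 53.3, 52.8 and 40.5 CPM against 433, 349 and 394 CPM in GM12878. PLIN2, the droplet coat protein, had 477, 539 and 221 CPM in HepG2 and 46.7, 151 and 70.3 CPM in GM12878. Replicate 3 of HepG2 was low for it, though still above each GM12878 library.

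Amino acid metabolism differed at both ends, synthesis and breakdown. The factor ATF4 turns on genes for serine, proline and transport when amino acids are short. In the list of amino acid synthesis and ATF4 targets, 16 of 30 tested members were higher in HepG2 and 2 lower, with a median log2 change of 1.28. PYCR1, of proline synthesis, had 651, 618 and 442 CPM in HepG2 and 113, 64 and 98.4 CPM in GM12878. PHGDH, which opens serine synthesis, had 492, 576 and 571 CPM in HepG2 and 80, 81.5 and 98.4 CPM in GM12878. TRIB3, a pseudokinase, had a log2 change of 4.50 ± 0.79, and CEBPB, a leucine zipper factor, had 213, 169 and 114 CPM in HepG2 and 6.67, 0 and 14.1 CPM in GM12878. Both lie on chromosome 20. ASNS, asparagine synthetase, was at 42.5 ± 18.5 CPM in HepG2 and 25.98 ± 17.96 in GM12878 and was not called. ATF5, a related factor, was lower in HepG2, at 62.2, 42.3 and 25.8 CPM against 160.01, 105 and 155 CPM in GM12878. On the other strand IL4I1 overlaps ATF5, with 0 reads in HepG2 and 118 in GM12878. NUP62 overlaps it there too, with 37 and 54 reads, so the values of ATF5 are uncertain.

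Breakdown of amino acids and nitrogen disposal gave 10 of 13 tested members higher in HepG2 and 0 lower, and a median log2 change of 2.95. ASS1, of the urea cycle, had 246, 254 and 155 CPM in HepG2 and 0 reads in GM12878, and its next enzyme ASL 198, 206 and 243 CPM in HepG2 and 53.3, 58.2 and 84.4 CPM in GM12878. HPD and HGD, of tyrosine breakdown, had 313 ± 77.8 and 227 ± 19.6 CPM in HepG2 and 0 reads in GM12878, whereas FAH, the last step, was at 80.2 ± 18.4 CPM in HepG2 and 85.2 ± 19.04 in GM12878 and was not called. GLUL, glutamine synthetase, had 675, 449 and 659.6 CPM in HepG2 and 13.3, 11.6 and 56.2 CPM in GM12878. GLUD1, glutamate dehydrogenase, was 7.67-fold higher. Of 32 members fixed for this list only 13 reached a test, and ARG1, the arginase of liver, was not among them. ARG2, the mitochondrial arginase, was, with 82.9, 63.4 and 73.7 CPM in HepG2 and 0 reads in GM12878.

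**Figure D3:**
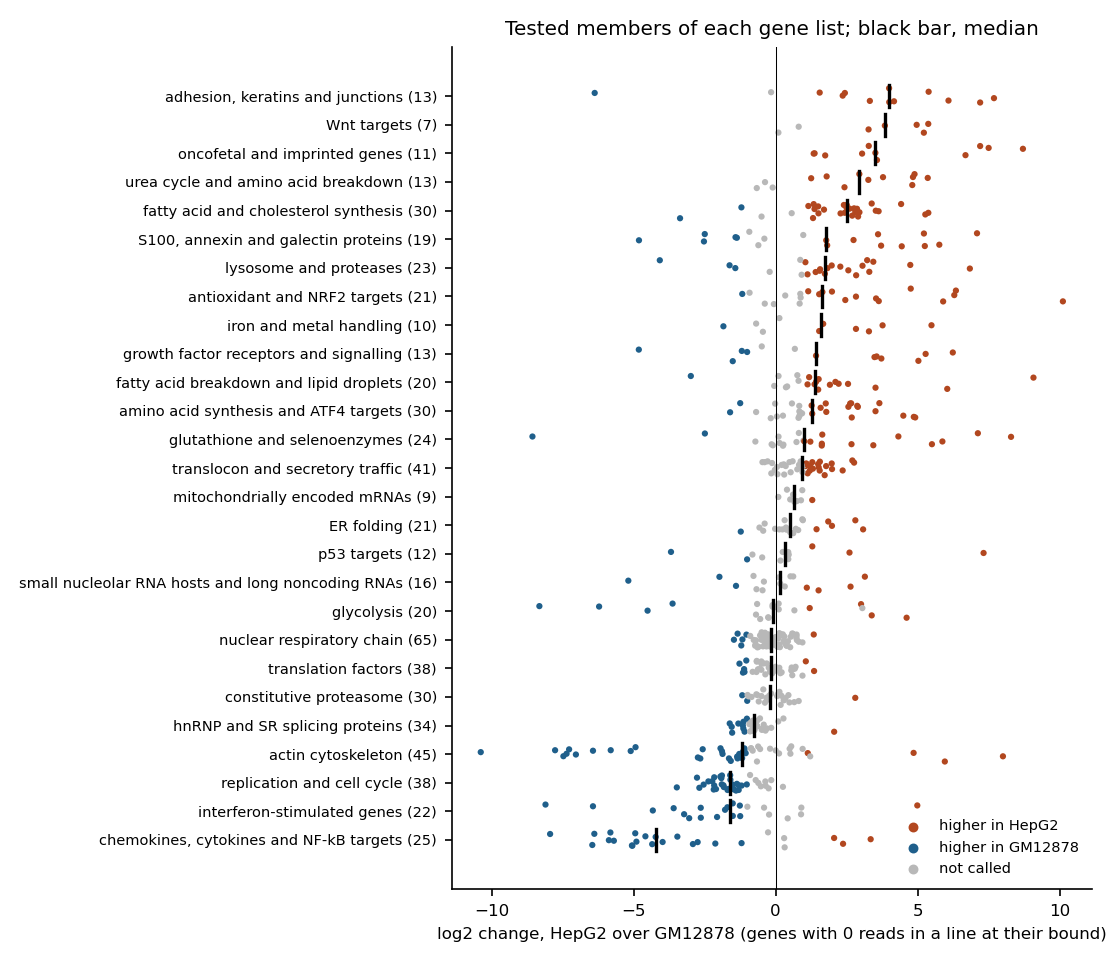
Each point is 1 tested member of a gene list, placed by its log2 change, HepG2 over GM12878, with the number of tested members in brackets; black bars are medians and genes with 0 reads in a line are at their bound. Adhesion, Wnt, oncofetal and lipid synthesis genes lie to the right, NF-kB, interferon, replication and actin genes to the left, and proteasome, translation and respiratory genes gather near 0.

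Genes of translocon and vesicle traffic were higher in HepG2 or were not called. Proteins for export enter the endoplasmic reticulum through a translocon, are folded there and move on in coated vesicles. Of 41 tested genes of translocon and vesicle traffic, 19 were higher in HepG2 and 0 lower, a median log2 change of 0.95. RPN2, a subunit of the enzyme that attaches N-glycans, had 811, 835 and 822 CPM in HepG2 and 220.01, 256 and 112 CPM in GM12878. KDELR2, which returns resident proteins to the ER, had 554, 544 and 556 CPM in HepG2 and 100, 75.6 and 56.2 CPM in GM12878. SURF4, a cargo receptor of the ER, was 2.36 ± 0.30 higher on the log2 scale. Of the pore subunits, SEC61A1 was called at 1.13, a call lost in 6 of the 16 other settings, among them library totals and the fit without GM12878 replicate 3. SEC61B was not called, at 524 ± 97.3 CPM in HepG2 and 449 ± 60.3 in GM12878. With library totals in place of TMM the count of higher genes was 11, and against a 2-fold change it was 8.

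Among ER folding genes 5 of 21 tested members were higher in HepG2 and 1 lower. That is 28.6% called, below the 49.1% of all tested genes. P4HB, a disulfide isomerase, had 2626, 2515 and 2583 CPM in HepG2 and 347, 361 and 408 CPM in GM12878, and XBP1, a factor of the unfolded protein response and of plasma cells, 518, 423 and 612 CPM in HepG2 and 60, 64 and 56.2 CPM in GM12878. HSPA5, the chaperone BiP, was at 767 ± 138 CPM in HepG2 and 509.7 ± 97.5 in GM12878 and CALR, calreticulin, at 918 ± 84.3 and 839 ± 82.7, and neither was called. SDF2L1, an ER stress gene, was lower in HepG2, with 88.1 ± 9.72 CPM against 207 ± 16.1 in GM12878.

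Lysosomal genes were higher in HepG2 for 17 of 23 tested members and lower for 3, with a median log2 change of 1.73. CTSB, a broad lysosomal protease, had 764, 729 and 593 CPM in HepG2 and 13.3, 34.9 and 28.1 CPM in GM12878, and CTSD 1019, 1104 and 568 CPM in HepG2 and 66.7, 122 and 70.3 CPM in GM12878. CST3, the secreted cathepsin inhibitor cystatin C (ENSG00000101439.8, chromosome 20, 23626706 to 23638473, GRCh38), had 4966, 5072 and 5015 CPM in HepG2 and 40, 46.5 and 42.2 CPM in GM12878, a log2 change of 6.84 ± 0.26. Cathepsins with roles in immune cells went the other way: CTSH, CTSC and CTSZ were lower in HepG2, with CTSH at 184, 227 and 169.5 CPM in HepG2 and 480.02, 593 and 731 CPM in GM12878, and CTSZ at 0 reads in HepG2 and 107, 69.8 and 14.1 CPM in GM12878.

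Tested genes of fetal liver and tumours were higher in HepG2, several with 0 reads in GM12878. Of 25 genes fixed for the oncofetal and imprinted list only 11 were tested. All 11 were higher in HepG2, with a median log2 change of 3.51 when genes at 0 reads were set to their bound. Members abundant in HepG2 alone enter the test through that line, so this count does not describe the whole list. IGF2, the fetal insulin-like growth factor (ENSG00000284779.1, chromosome 11, 2129112 to 2158658, GRCh38), had 3983, 4169 and 1429.8 CPM in HepG2 and 0 reads in GM12878. Replicate 3 was far below the other HepG2 libraries. The overlapping model AC132217.1 on the same strand had reads in HepG2 as well, and the division of reads between them is uncertain. DLK1, an imprinted Notch-like ligand, had 918, 861 and 579 CPM in HepG2 and 0 reads in GM12878. GPC3, a heparan sulfate proteoglycan of liver cancer, had 1433, 1421 and 1293 CPM in HepG2 and 0 reads in GM12878. GNAS, the stimulatory G protein alpha chain on chromosome 20, was read in both lines, at 1566, 1532 and 1861 CPM in HepG2 and 733, 646 and 506 CPM in GM12878.

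Targets of Wnt signalling that feed back on the pathway were among the genes found in HepG2 alone. NOTUM, which inactivates Wnt proteins, had 252, 243 and 221 CPM in HepG2 and 0 reads in GM12878. SP5, a transcription factor, had 388, 349 and 214 CPM, and NKD1, an inhibitor of Dishevelled, 124, 106 and 99.5 CPM in HepG2, both with 0 reads in GM12878. CCND1 and DKK1 were the other called members, which makes 5 of 7 tested. Of 18 genes fixed for the list only these 7 were tested. Members abundant in HepG2 alone enter the test through that line, so this count does not describe the whole list. CTNNB1, the effector beta-catenin, was at 113 ± 22.8 CPM in HepG2 and 61.7 ± 12.1 in GM12878, and MYC at 75.7 ± 19.9 and 67.6 ± 23.1. Neither was called, apart from CTNNB1 without HepG2 replicate 3.

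Genes of growth factor receptors and signalling gave 7 of 13 tested members higher in HepG2 and 4 lower, of 29 fixed for the list. The count of lower genes fell to 1 without HepG2 replicate 1 or 3, and to 2 without HepG2 replicate 2 or GM12878 replicate 2. FGFR4, the receptor for the bile acid signal FGF19, had 569, 634 and 527 CPM in HepG2 and 0 reads in GM12878. ID1, an inhibitor of helix-loop-helix factors on chromosome 20, had 329, 312 and 251 CPM in HepG2 and 0 reads in GM12878, while its relative ID3 was lower in HepG2, at 79.9, 68.7 and 92.1 CPM against 160.01, 186 and 225 CPM in GM12878. ID3 kept its call in only 1 of the 6 fits that leave out a library, the one without GM12878 replicate 1. IGFBP1, which binds insulin-like growth factors, had 314, 359 and 73.7 CPM in HepG2, with replicate 3 far below the others, and 0 reads in GM12878. With only the 6 libraries of these lines in the fit it was not called. Of 12 tested p53 targets, 3 were higher in HepG2 and 2 lower. GDF15, a stress hormone, had 533, 449 and 523 CPM in HepG2 and 0, 5.82 and 0 CPM in GM12878, and CDKN1A, the cell cycle inhibitor p21, was at 153 ± 40.1 CPM in HepG2 and 260.4 ± 55.03 in GM12878 and was not called.

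The cytoskeleton was built from different parts. Epithelial cells carry keratins and junctions, while leukocytes carry a dense actin cortex. In the actin list 27 of 45 tested members were lower in HepG2 and 4 higher (2 without HepG2 replicate 3), with a median log2 change of -1.18. The actins themselves were lower, with ACTB at 2517, 2610.1 and 2476 CPM in HepG2 and 16507, 15179 and 16126 CPM in GM12878 and ACTG1 at 2096, 2172 and 1677 CPM in HepG2 and 4740.2, 4963 and 4963 CPM in GM12878. CORO1A, the coronin of leukocytes, had 8.88, 10.6 and 3.69 CPM in HepG2 and 1673, 1693 and 1968 CPM in GM12878, whereas CORO1B was at 93.8 ± 5.95 CPM in HepG2 and 64.8 ± 13.2 in GM12878 and was not called. The same division held for Rac GTPases: RAC2 had 0 reads in HepG2 and 533, 634 and 576 CPM in GM12878, and RAC1 198, 174 and 265 CPM in HepG2 and 253, 204 and 169 CPM in GM12878, with a 95% interval of -0.54 to 0.55. VIL1, villin of microvilli, had 527, 454 and 442 CPM in HepG2 and 0 reads in GM12878, against 0 HepG2 reads and 260.01, 175 and 197 CPM in GM12878 for MSN, moesin. CFL2, a cofilin best known from muscle, had 85.9, 42.3 and 136 CPM in HepG2 and 6.67, 0 and 0 CPM in GM12878 and was called, and CFL1 was at 1361 ± 54.5 CPM in HepG2 and 2479.6 ± 4.96 in GM12878 and was not called.

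Adhesion genes gave 11 of 13 tested members higher in HepG2 and 1 lower. Of 36 genes fixed for this list only 13 were tested, and members abundant in 1 line enter the test through that line. TM4SF5, a tetraspanin-like protein of liver tumours, had 533, 608 and 416 CPM in HepG2 and 0 reads in GM12878. The exception was CD81 (ENSG00000110651.11, chromosome 11, 2376177 to 2397419, GRCh38), a tetraspanin that serves as an entry receptor for hepatitis C virus. It had 0 reads in HepG2 and 287, 268 and 379.6 CPM in GM12878, at least 82.8-fold lower in HepG2. CD63 and CD151, other tetraspanins, were higher in HepG2, with log2 changes of 1.55 and 4.17. Calcium-binding S100 genes were called as higher in HepG2 for all tested members but S100A11. S100A1 had 1007, 956 and 1161 CPM and S100P 479.7, 433 and 332 CPM in HepG2, both with 0 reads in GM12878, and S100A11 was at 31.9 ± 5.24 CPM in HepG2 and 54.9 ± 37.1 in GM12878 and was not called. S100A1 overlaps S100A13 on the other strand. Annexins were divided, with ANXA4 higher in HepG2 (2.74) and ANXA2 and ANXA6 lower (-1.41 and -1.37), while ANXA1 had 0 reads in HepG2 and 33.3, 17.5 and 14.1 CPM in GM12878. LGALS1, the secreted galectin-1, was lower in HepG2, at 249, 217 and 133 CPM against 1047, 1123 and 1237 CPM in GM12878, and LGALS3 higher, at 85.9, 100.4 and 84.8 CPM against 20, 40.7 and 0 CPM.

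Genes of DNA replication and mitosis were mostly lower in HepG2. Of 38 tested members, 29 were lower and 0 higher, with a median log2 change of -1.60. MCM6, of the replicative helicase, had 35.5, 5.28 and 25.8 CPM in HepG2 and 153, 180.4 and 183 CPM in GM12878. MKI67, the proliferation antigen, had 8.88, 0 and 22.1 CPM in HepG2 and 153, 145 and 70.3 CPM in GM12878, a log2 change of -3.48 ± 0.51. HMGN2, a nucleosome-binding protein, had 166, 190.2 and 155 CPM in HepG2 and 1007, 983 and 956 CPM in GM12878, and TUBA1B, the main alpha-tubulin of dividing cells, 687, 571 and 615 CPM in HepG2 and 2813, 2577 and 3487 CPM in GM12878. TOP2A, a topoisomerase of dividing cells, was among the 9 not called, at 45.8 ± 21.1 CPM in HepG2 and 63.1 ± 19.3 in GM12878. Fewer dividing cells and less RNA per dividing cell cannot be told apart in bulk RNA. The D cyclins, which start the cell cycle, were divided: CCND1 had 121, 132 and 99.5 CPM in HepG2 and 6.67, 0 and 0 CPM in GM12878, CCND2 had 0 reads in HepG2 and 300.01, 279 and 211 CPM in GM12878, and CCND3 was lower in HepG2, at 11.8, 5.28 and 14.7 CPM against 80, 46.5 and 98.4 CPM in GM12878.

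For splicing genes the share of calls lay below the background. Of 34 tested hnRNP and SR genes 29.4% were called, against 49.1% of all tested genes. In HepG2 9 were lower and 1 higher, where 21.1% of all tested genes were lower and 28% higher. Their median log2 change was -0.76. With library totals in place of TMM 22 were lower, and against a 2-fold change 3. TRA2B, a regulator of exon inclusion, had 71.1, 47.6 and 73.7 CPM in HepG2 and 233, 151 and 239 CPM in GM12878, and SRSF7 107, 68.7 and 118 CPM in HepG2 and 327, 233 and 337 CPM in GM12878. QKI was the 1 higher member, at 38.5, 31.7 and 62.6 CPM in HepG2 and 6.67, 5.82 and 28.1 CPM in GM12878, and it was not called by DESeq2 or without GM12878 replicate 1 or 2. HNRNPA1, at 1107 ± 121 CPM in HepG2 and 1540.4 ± 153 in GM12878, was not called. Hosts of small nucleolar RNAs and other noncoding RNAs went both ways, with 4 of 16 tested members higher in HepG2 and 3 lower (1 lower without GM12878 replicate 1). SNHG7 was higher in HepG2, at 287, 254 and 155 CPM against 33.3, 11.6 and 42.2 CPM in GM12878, and SNHG15 lower, at 0, 5.28 and 0 CPM against 40, 69.8 and 112 CPM in GM12878.

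Genes of NF-kB and interferon signalling were mostly lower in HepG2. The viral protein LMP1 is known to keep NF-kB active in lymphoblastoid lines. Of 25 tested chemokine, cytokine and NF-kB genes, 19 were lower in HepG2 and 3 higher. CCR7, the receptor that guides lymphocytes to lymph nodes, had 0 reads in HepG2 and 333, 459.6 and 197 CPM in GM12878, and CCL22, a chemokine, 0 reads in HepG2 and 153, 122 and 309 CPM in GM12878. The chemokines CCL3 and CCL4 had 0 reads in HepG2, with 1120.04, 809 and 844 CPM for CCL3 and 313, 389.8 and 239 CPM for CCL4 in GM12878. Near-identical copies make their values uncertain. The subunit genes NFKB2 and RELB were lower in HepG2, at mean levels of 22.7 ± 14.8 and 10.4 ± 4.8 CPM against 142 ± 34.8 and 85.6 ± 13.2 CPM in GM12878 (SD, n = 3 each). NFKBIA, the inhibitor that NF-kB itself induces, was at 342 ± 52 CPM in HepG2 and 272 ± 18.9 in GM12878 and was not called. IL32, a cytokine of lymphocytes, was higher in HepG2, at 687, 481 and 509 CPM against 173, 111 and 112 CPM in GM12878. The remaining 2 higher entries are both SOD2, a mitochondrial dismutase annotated under 2 overlapping gene identifiers.

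Interferon-stimulated genes gave 15 of 22 tested members lower in HepG2 and 1 higher (3 without HepG2 replicate 3). MX1, an antiviral GTPase, had 5.92, 0 and 0 CPM in HepG2 and 220.01, 285 and 309 CPM in GM12878. The IFITM membrane proteins were divided: IFITM1 was lower in HepG2, at 2.96, 0 and 0 CPM against 480.02, 535 and 520.2 CPM in GM12878, and IFITM3 higher, at 278, 217 and 232 CPM against 0 reads in GM12878. These paralogues are alike in sequence, so reads between them are uncertain. The immunoproteasome subunits replace the catalytic subunits of the constitutive proteasome in immune cells, and PSMB5 and PSMB8 differed in opposite directions. PSMB8 had 101, 73.97 and 58.96 CPM in HepG2 and 540.02, 704 and 745 CPM in GM12878, and PSMB5, which it replaces, 1137, 1199 and 1293 CPM in HepG2 and 160.01, 227 and 98.4 CPM in GM12878, a log2 change of 2.80 ± 0.24. PSMB5 (ENSG00000100804.18, chromosome 14, 23016543 to 23035230, GRCh38) was the 1 of 30 constitutive proteasome genes higher in HepG2. PSMB6 and PSMB7, the other constitutive catalytic subunits, were at 459.7 ± 55.03 and 491 ± 38.2 CPM in HepG2 and 324 ± 71.8 and 438 ± 25.3 in GM12878 and were not called. PSMA2 and PSMA3 were lower, PSMA3 at 179.7 ± 5.01 CPM in HepG2 and 366 ± 66 in GM12878, though 10 of the 16 other settings tried did not call it, among them those without any 1 HepG2 library and without GM12878 replicate 2 or 3. Without HepG2 replicate 2 neither was called, and without GM12878 replicate 3 there were 4 lower proteasome genes. With library totals 7 were lower.

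In glycolysis some isozymes were called and their counterparts were not. GAPDH had 7272, 6995 and 4849.7 CPM in HepG2 and 7694, 6749 and 8253 CPM in GM12878, and ENO1, enolase, 3453, 3725 and 2406 CPM in HepG2 and 3280.1, 3607 and 3430.4 CPM in GM12878, and neither was called. Of 20 tested genes, 4 were higher in HepG2 and 4 lower. HK1, hexokinase 1, had 2.96, 0 and 3.69 CPM in HepG2 and 73.3, 81.5 and 42.2 CPM in GM12878. Among phosphofructokinases PFKP had 2.96, 0 and 0 CPM in HepG2 and 113, 198 and 70.3 CPM in GM12878, and PFKL, the liver form, 187, 259 and 243 CPM in HepG2 and 233, 198 and 197 CPM in GM12878, with a 95% interval of -0.45 to 0.67. PKLR, the liver pyruvate kinase, had 50.3, 52.8 and 81.1 CPM in HepG2 and 0 reads in GM12878, and PKM, the common form, 1272 ± 269 CPM in HepG2 and 2036 ± 289.8 in GM12878 with no call. LDHA was at 1377, 1226 and 1109 CPM in HepG2 and 800.03, 873 and 647 CPM in GM12878 and was not called, beside the 0 HepG2 reads of LDHB. SLC16A3, the lactate exporter MCT4, had 1211, 1215 and 560.1 CPM in HepG2 and 60, 40.7 and 0 CPM in GM12878. ALDOA, aldolase A, was called at 1.20 ± 0.24, but not with library totals, with a minimum of 20 reads or against a 2-fold change. The model AC093512.2 overlaps it on the same strand, with 1458 reads in HepG2 and 284 in GM12878. How reads were divided between them is uncertain.

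Other enzyme and protein pairs were split in the same manner. IDH1, the cytosolic isocitrate dehydrogenase, had 663, 513 and 1028 CPM in HepG2 and 46.7, 23.3 and 14.1 CPM in GM12878, while mitochondrial IDH2 was at 210.2, 254 and 298 CPM in HepG2 and 207, 204 and 141 CPM in GM12878 and was not called. ATP1B1, a beta chain of the sodium pump, had 329, 190.2 and 302 CPM in HepG2 and 13.3, 0 and 0 CPM in GM12878, and its alternative ATP1B3 201 ± 16.2 CPM in HepG2 and 124 ± 44.4 in GM12878 with no call. RPL22, a ribosomal protein, was even, at 1466, 1474 and 1378 CPM in HepG2 and 1440.05, 1454 and 1336 CPM in GM12878 with a 95% interval of -0.33 to 0.38. Its paralogue RPL22L1 (ENSG00000163584.17, chromosome 3, 170864875 to 170870483, GRCh38) was lower in HepG2, at 44.4, 84.5 and 66.3 CPM against 547, 495 and 661 CPM in GM12878, a log2 change of -3.14 ± 0.28. CKB, the brain creatine kinase, had 225, 275 and 195 CPM in HepG2 and 6.67, 5.82 and 0 CPM in GM12878.

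Few genes of the machinery that all cells share were called. Ribosomal and elongation genes gave the narrowest intervals within 2-fold: RPS6 had 4379, 4576 and 3763 CPM in HepG2 and 4033, 4486 and 3993 CPM in GM12878, an interval of -0.30 to 0.34, and RPL37 4095, 3329 and 3836 CPM in HepG2 and 3893, 3898 and 3712 CPM in GM12878, an interval of -0.36 to 0.30. EEF1A1, the main elongation factor, was at 14619, 14202 and 13079 CPM in HepG2 and 8547, 9303 and 8393 CPM in GM12878, higher in every HepG2 library by less than 2-fold (0.36 to 0.99). Of 65 nuclear genes of the respiratory chain, 5 were lower in HepG2 and 1 higher, and COX5B was the higher one, at 960.1 ± 162 CPM in HepG2 and 382 ± 65.6 in GM12878. ATP5F1B, the catalytic chain of ATP synthase, was at 1486 ± 128 CPM in HepG2 and 1491 ± 161 in GM12878. Of 38 translation factors 5 were lower and 2 higher, with 3 lower without HepG2 replicate 1 and 2 lower without HepG2 replicate 3. EIF6, which keeps ribosomal subunits apart and lies on chromosome 20, was one of the higher, at 769.9, 819 and 652 CPM in HepG2 and 287, 303 and 281 CPM in GM12878. With library totals COX5B and EIF6 were not called, and 12 respiratory and 10 translation factor genes were lower. With library totals in place of TMM the median change of all genes moved by -0.40, and changes below that size are not separated from the choice of scaling.

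Iron and metal genes gave 6 of 10 tested members higher in HepG2 and 1 lower, of 26 fixed for the list. SLC39A14, an importer of iron, zinc and manganese, had 699, 549 and 877 CPM in HepG2 and 13.3, 17.5 and 14.1 CPM in GM12878. TFR2, an iron sensor of liver, had 133, 89.8 and 88.4 CPM in HepG2 and HAMP, the iron hormone hepcidin, 65.1, 84.5 and 73.7 CPM, both with 0 reads in GM12878. TFRC, the common transferrin receptor, was at 82.8 ± 29.2 CPM in HepG2 and 106 ± 40.7 in GM12878 and was not called. The metallothionein MT1E was lower in HepG2, at 88.8, 73.97 and 103 CPM against 293, 349 and 323 CPM in GM12878.

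Chromosome 20 had the largest percent of tested genes higher in HepG2 among the autosomes. Of its 168 tested genes, 83 (49.4%) were higher in HepG2 and 16 lower, against 28.2% higher over all autosomes, and their median log2 change was 1.01 against 0.03. To look past genes of 1 lineage, the medians were also taken over genes with at least 50 CPM in both lines. There the median was 0.74 for 87 genes of chromosome 20 and -0.02 for 2017 autosomal genes, and 77.0% of the 87 had the higher mean in HepG2. Setting 1 library at a time against the mean of the other line gave medians of 0.68 to 0.90. Chromosomes 2 and 16 followed with medians of 0.32 each and chromosome 17 with 0.17, while chromosome 14, with 39.0% of genes higher in HepG2, had a median of -0.09 among shared genes. ROMO1, a small mitochondrial protein chosen after its values were seen, had 1075, 867 and 1153 CPM in HepG2 and 200.01, 169 and 98.4 CPM in GM12878. Not every gene followed: PCNA, the replication clamp, and MYBL2, a cell cycle factor, both on chromosome 20, were lower in HepG2 (-1.20 and -2.29; PCNA not without HepG2 replicate 2 or against a 2-fold change), and SNRPB2, of the spliceosome, had 169.6 ± 28.02 CPM in HepG2 and 172 ± 34 in GM12878. HepG2 is known to carry extra copies of chromosome 20 and of several others; copy number was not measured here, and its part in these medians was not tested.

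**Figure D4:**
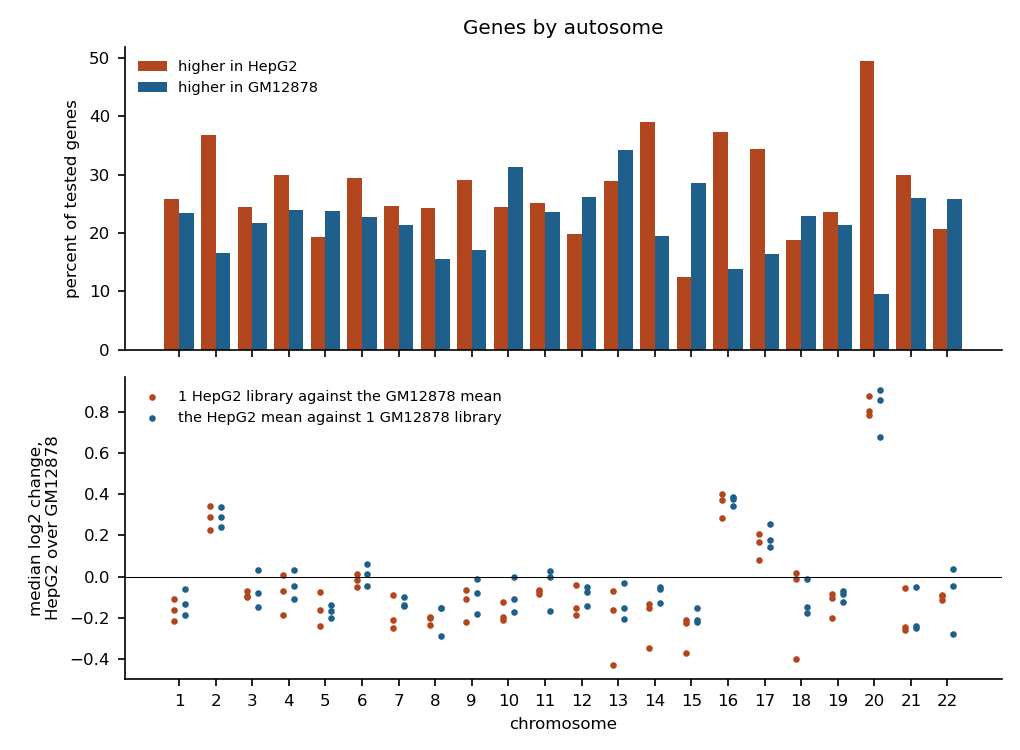
Upper panel, the percent of tested genes of each autosome that were higher in HepG2 or higher in GM12878; lower panel, the median log2 change of genes with at least 50 CPM in both lines, with 1 library at a time set against the mean of the other line, so that each autosome has 6 points. Chromosome 20 reaches 49.4% higher in HepG2 and lies at 0.68 to 0.90, above every point of the other autosomes, and chromosomes 2, 16 and 17 lie above 0 in all 6.

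Lines also differed in which transcript of a gene they used. Among 654 genes with at least 2 known transcripts and at least 10 reads in each line, 20 (3.06%) changed their shares, by edgeR's diffSpliceDGE. A call needed an adjusted p (Simes over transcripts) below 0.05 and 10 or more points between the lines, and 27 passed the p alone. Shares are of a gene's reads on those known transcripts that had at least 10 reads over the 6 libraries, called known reads below. ACP1, a low molecular weight tyrosine phosphatase on chromosome 2, is made with 1 of 2 coding exons of 114 bases that exclude each other. ACP1-201 held 34.8%, 62.1% and 57.1% of known reads in the HepG2 libraries and 92.3%, 93.8% and 100% in GM12878. ACP1-202 held 39.3% of the 117 HepG2 reads and 2.63% of the 38 GM12878 reads (adjusted p = 0.0112). The GM12878 libraries used the exon of ACP1-201 almost alone, and the HepG2 libraries used both. The call was lost without HepG2 replicate 1 and without GM12878 replicate 1 or 3, at shifts of -35.6, -46.4 and -43.5 points for ACP1-201. The exons, from GENCODE on GRCh38, plus strand, are shown with the bases that differ at the same position in capitals. They are identical at 62 of 114 bases, 54.4%.
ACP1-201 exon, chr2:272037-272150: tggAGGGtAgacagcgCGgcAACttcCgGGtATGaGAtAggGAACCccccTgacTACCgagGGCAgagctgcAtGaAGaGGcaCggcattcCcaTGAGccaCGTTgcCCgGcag
ACP1-202 exon, chr2:272192-272305: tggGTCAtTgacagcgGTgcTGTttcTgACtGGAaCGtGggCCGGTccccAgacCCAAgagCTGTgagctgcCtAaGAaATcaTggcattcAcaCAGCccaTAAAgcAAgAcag

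ACOT7, which cleaves fatty acyl-CoA, differed between the lines in the shares of its first exons on chromosome 1. ACOT7-203 held 33.3%, 50% and 56.3% of known reads in HepG2 and 0% in each GM12878 library, from 23 of 53 reads in HepG2 and 0 of 43 in GM12878 (adjusted p = 0.000367). All 43 of these GM12878 reads were of ACOT7-210, whose start lies 32654 bases upstream. In HepG2 ACOT7-210 held 30 of the 53 reads, 56.6%, so HepG2 used both first exons. The coding parts of the first exons, GRCh38, minus strand, give the proteins different first residues, and capitals mark the start codon.
ACOT7-203 exon 1, chr1:6360570-6360652: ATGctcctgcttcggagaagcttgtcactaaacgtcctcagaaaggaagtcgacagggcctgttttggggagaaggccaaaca
ACOT7-210 exon 1, chr1:6393257-6393303: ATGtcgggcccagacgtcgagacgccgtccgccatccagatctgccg

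The other shifts touched mitochondrial, RNA-binding and ER genes. NDUFS5-202, a transcript of a complex I subunit of 548 bases against 544 for NDUFS5-201, held 49.3% of 144 known reads in HepG2 and 8.55% of 234 in GM12878 (adjusted p = 2.19e-07), with every HepG2 library above every GM12878 library. ATP5MC1-202, of the ATP synthase ring, held 45.2% in HepG2 and 1.96% in GM12878. SNU13-202, of a small nuclear RNA-binding protein, held 44.3% in HepG2 and 83.6% in GM12878, and APEX1-210, of a DNA repair enzyme, 1.01% in HepG2 and 36.4% in GM12878. SNHG8-201 held 88.4% of 95 reads in HepG2 and 38.5% of 39 in GM12878, with GM12878 libraries from 25% to 75%. SSNA1-202 held 80.7% in HepG2 and 39.4% in GM12878. P4HB-201, the full-length disulfide isomerase, held 21.7% of 950 reads in HepG2 and 60.6% of 71 in GM12878. Other HepG2 reads of P4HB were assigned to shorter models, and any part of the larger share of incomplete reads in HepG2 in this shift was not tested. With incomplete matches added, the shift of SNU13-202 was -13.7 points against -39.3, that of NDUFS5-202 20.2 against 40.8 and that of ACOT7-203 25.6 against 43.4. Without GM12878 replicate 1, 10 genes in all were called and without replicate 2, 9. SSNA1, SNU13 and P4HB lost their calls without either of these, SNHG8 and ATP5MC1 without GM12878 replicate 2, SSNA1 without HepG2 replicate 2 and SNU13 without HepG2 replicate 1.

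**Figure D5:**
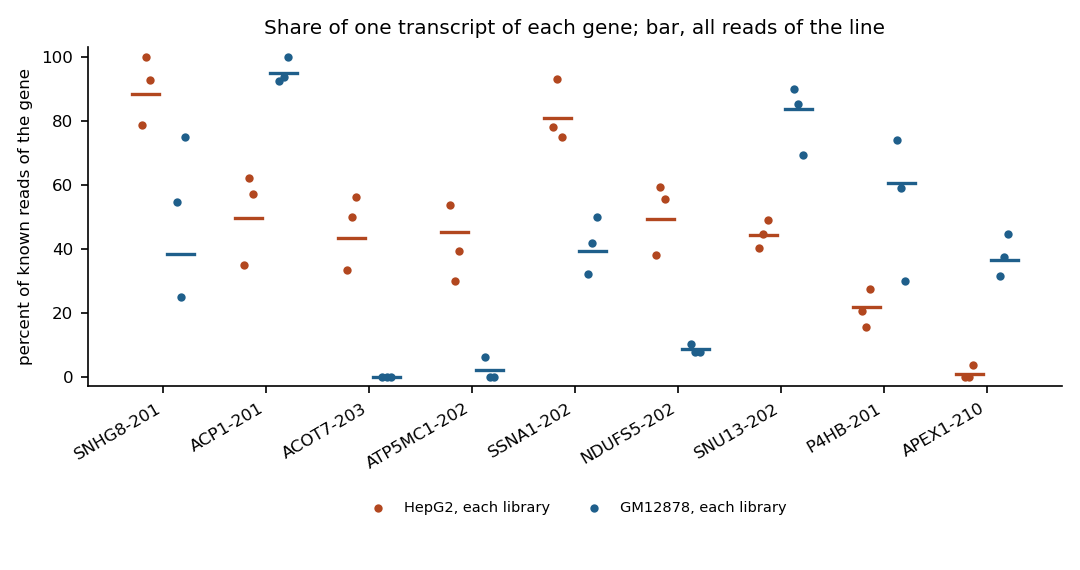
Percent of a gene's known reads on 1 transcript in each library, HepG2 to the left of GM12878 for each gene; bars are the shares over all reads of a line. ACOT7-203 is at 0% in all 3 GM12878 libraries, and the lines do not overlap for any transcript shown.

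Promoters were read for 8 motifs of lineage, stress and lipid factors, over 250 bases before to 50 after each start, from RefSeq on GRCh38.p14, where 3744 of the tested genes matched. The HNF1 letters GTTAATNAT, on either strand, were in 10 of 1010 promoters of genes higher in HepG2 (0.99%, 95% Wilson interval 0.539% to 1.81%), in 1 of 788 of genes higher in GM12878 (0.127%), in 0.308% of genes not called and in 0.751% of all 27305 promoters. The HNF4 letters CAAAGTCCA were in 8 promoters of genes higher in HepG2 (0.792%), in 0 of genes higher in GM12878 (at most 0.485%) and in 0.359% of all. The ETS letters AGAGGAAGT, read by PU.1 and SPI-B in B cells, were in 5 promoters of genes higher in HepG2 (0.495%), in 18 of genes higher in GM12878 (2.28%) and in 0.956% of all. The NRF2 letters TGACNNNGC were in 15.45% of promoters of genes higher in HepG2, 12.6% of those higher in GM12878 and 13.6% of all. The octamer ATGCAAAT of B cell promoters was in 1.485% of promoters of genes higher in HepG2, 1.65% of those higher in GM12878 and 1.80% of all. The sterol response letters TCACNCCAC were in 1.68%, 1.40% and 1.15% of the same sets, the ATF4 letters TGATGNAA in 2.18%, 2.03% and 3.67%, and the NF-kB letters GGGANTTTC in 0.99%, 2.28% and 1.30%. In promoters of genes not called, the NRF2 letters were in 17.7%, the octamer in 0.874%, the ATF4 letters in 1.34% and the sterol letters in 1.13%. The NF-kB letters were there in 1.285%, the HNF4 letters in 0.2055% and the ETS letters in 1.03%. All promoters include those of genes not tested, so genes not called are the closer comparison. Against them the NRF2 share of genes higher in HepG2 was lower, and the ATF4 and octamer shares of both called sets were higher. A match describes letters, not binding. The promoters below, cut to the part around the match, show where the capitals of the HNF1 letters lie in ALB and AFP, and in PRODH2, a hydroxyproline dehydrogenase, and LIPC, the hepatic lipase, both chosen after their values were seen. All have 0 reads in GM12878, and PRODH2 had 85.9, 179.6 and 147 and LIPC 71.1, 116 and 151 CPM in HepG2.
ALB, chr4:73404181-73404279, plus strand: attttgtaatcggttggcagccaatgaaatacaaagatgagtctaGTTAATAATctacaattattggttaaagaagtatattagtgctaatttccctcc
AFP, chr4:73436044-73436142, plus strand: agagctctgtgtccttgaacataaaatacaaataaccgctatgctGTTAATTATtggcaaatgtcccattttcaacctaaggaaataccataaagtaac
PRODH2, chr19:35812900-35812998, minus strand: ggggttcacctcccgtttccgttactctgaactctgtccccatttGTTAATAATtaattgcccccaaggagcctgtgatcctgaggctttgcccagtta
LIPC, chr15:58431880-58431978, plus strand: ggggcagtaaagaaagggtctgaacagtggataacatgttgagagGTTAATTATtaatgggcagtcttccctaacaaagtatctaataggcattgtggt

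For the ETS letters the genes of largest change were LCP1 and NCF1, a subunit of the phagocyte oxidase with 0, 5.28 and 0 CPM in HepG2 and 387, 372 and 281 CPM in GM12878, whose near-identical copies make its counts uncertain. RFTN1, a raft protein of B cells chosen after its values were seen, had 0 reads in HepG2 and 180.01, 279 and 295 CPM in GM12878. Capitals mark the ETS letters, which lie on the opposite strand in NCF1.
LCP1, chr13:46182318-46182416, minus strand: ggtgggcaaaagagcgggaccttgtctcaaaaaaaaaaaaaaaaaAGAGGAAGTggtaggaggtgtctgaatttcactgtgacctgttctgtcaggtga
NCF1, chr7:74773919-74774010, plus strand: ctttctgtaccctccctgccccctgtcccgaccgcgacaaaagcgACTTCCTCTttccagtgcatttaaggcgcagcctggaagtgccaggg
RFTN1, chr3:16513700-16513796, minus strand: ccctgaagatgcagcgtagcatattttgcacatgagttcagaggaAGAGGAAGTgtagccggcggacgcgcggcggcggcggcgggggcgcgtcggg

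Single libraries of both lines stood apart for some genes. Pearson correlations of log2 CPM across genes, which are not independent, were 0.945 to 0.958 between HepG2 libraries, and 0.878 and 0.888 for GM12878 replicate 3 with its companions, against 0.932 between these. Of 972 genes with at least 200 CPM in HepG2, replicate 3 was at least 1.5 times below both others in 43 and above both in 18, against 1 and 4 genes for replicate 1 and 15 and 5 for replicate 2. The low genes in replicate 3 included IGFBP1, SLC16A3, PLIN2, IGF2 and the mitochondrial MT-CYB, and the high ones ETFA and IDH1. Without replicate 3 of HepG2 1959 genes were called, and 4 of 9 tested mitochondrially encoded mRNAs were higher in HepG2, against 1 with it. In GM12878 replicate 3, the shallowest library, 28 of 787 genes were below both others and 14 above, against 15 and 11 for replicate 1 and 5 and 3 for replicate 2. MT-RNR1, a mitochondrial ribosomal RNA, had 2140.1, 1163.6 and 155 CPM in the GM12878 libraries, and MT-CO3, a cytochrome oxidase chain, 1713, 1699 and 4344 CPM.

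HepG2 libraries held a larger share of reads short of the 5′ end. Incomplete matches that keep the 3′ end made up 21.7% ± 1.04 of reads in HepG2 and 14.5% ± 0.214 in GM12878 (SD, n = 3 each), and reads of known transcripts 39.2% ± 1.91 in HepG2 and 44.8% ± 0.736 in GM12878. Reads with an unannotated splice site made up 5.38% ± 0.485 in HepG2 and 8.55% ± 1.09 in GM12878. The lines did not overlap in any of these, and the exact two-sided permutation p of 0.1 is the smallest that 3 libraries against 3 allow (0.164 after Benjamini-Hochberg adjustment over 18 measures). Over 497 genes with at least 20 reads in each library, with equal weight per gene, incomplete matches of this kind were 19.3% in HepG2 and 14.7% in GM12878. The 10 most abundant genes took 13.1% ± 0.657 of gene reads in HepG2 and 7.98% ± 0.0534 in GM12878. After thinning each library to 69635 reads, 7777 ± 160 genes were found in HepG2 and 7944 ± 170 in GM12878 (exact permutation p = 0.3).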

How the data were processed

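Total RNA of the lines was sequenced as RNA on Oxford Nanopore devices, per the labels' protocols. The submitters' processing notes name minimap2 and hg38. TALON tables with counts of reads per transcript model were deposited by the authors for each library. Versions and use of strand in counting are not given in the sources used here, so reads of genes that overlap may be misassigned. Each table listed the same 506946 models, and no known model was shorter than 300 bases.

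Counts were summed per annotated gene over known and partly matching models. All 20565 genes matched GENCODE 29 on GRCh38. Genes kept by filterByExpr were tested with edgeR 4.0.16 in R 4.3.3 (TMM, robust quasi-likelihood fit over all 8 libraries, Benjamini-Hochberg adjustment), with a call at an adjusted p under 0.05 and a log2 change of at least 1. Transcript shares were tested with diffSpliceDGE, and library measures with exact permutation tests. The 95% intervals of the log2 change come from the quasi-likelihood fit and carry its estimate of spread among libraries. Floors of 3 reads cover counting error only.

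Gene lists, family lists and motifs were chosen with earlier results of these data known. Named genes were those of largest ratio after adding 10 CPM to both means, over the whole table outside marker lists and within each list, and those of narrowest interval within 2-fold. Paralogues, genes given as not called, chromosome examples and some further list members were picked after their values were seen. Alternatives were DESeq2 1.42.0, other scalings and filters, thinning, known transcripts only, a test against 2-fold, a replicate block and leaving out each library.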

Additional observations from a re-analysis of the deposited data

How the results depend on the processing

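Against 2348 calls, 1338 of them higher in HepG2 and 1010 higher in GM12878, there were 3746 and 2303 higher in HepG2 with no filter on low counts (17404 genes tested), 1201, 777 and 424 with at least 20 reads in 3 libraries (2411 tested), 777, 456 and 321 with known transcripts only (1702 tested) and 943, 548 and 395 after thinning (1985 tested), where the number of tested genes also changed. Against a 2-fold change 593 were higher in GM12878. Leaving out 1 library gave 1898 to 2417 calls, 1082 to 1425 higher in HepG2 and 816 to 992 higher in GM12878. With library totals in place of TMM, 42.9% of calls were higher in HepG2 instead of 57.0%. DESeq2 called 2059 of the 2348 in the same direction. Known transcripts only gave 187 calls in functional gene lists against 345. The chromosome 20 median, less the autosome median, was 0.76, and 0.99 with at least 20 reads, 0.66 with known transcripts, 1.16 after thinning and 0.71 to 0.83 when 1 library was left out. For transcript usage 40 genes were called with incomplete matches added, against 20, and 9 to 23 when 1 library was left out. With incomplete matches the share of HLA-A-203, a polymorphic gene whose reads may be misassigned, reversed to -13.3 points, and over shared genes the difference in mean known length reversed to -25 bases, against 51.1. The causes were not tested. Replicate numbers share only a number: deviations of libraries 1, 2 and 3 correlated at 0.0305, 0.00962 and 0.00805 between lines. A fit with the replicate block left out K562 and tested 3497 genes. It gave 1807 calls, 1051 of them up and 756 down in HepG2. Without the block, the libraries of HepG2 and GM12878 alone gave 1800 calls over 3497 genes, 1047 of them up and 753 down. For transcript usage the block gave 19 genes. Of 185 genes named with values, 130 to 185 could be tested under each of 16 settings, and in those fits none changed the direction of a call. With library totals CDKN1A, CFL1, PKM, S100A11 and TXNRD1 gained a call and GNAS lost it, and against a 2-fold change 16 lost it, among them ANXA2, ANXA6, ATF5, LGALS3 and SDF2L1. GM12878 depth limits the bounds for genes without reads there.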

Other observations

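Processed pseudogenes were tested in 60 cases, of which 2 were higher in HepG2 and 15 higher in GM12878, with a median log2 change of -0.60. Reads of a pseudogene and of its parent gene can be confused, so these values are uncertain. Chromosome 15 was the autosome with the lowest percent of genes higher in HepG2, 12.5%, against 28.6% of its genes higher in GM12878.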
